A study of Mus musculus with 16 samples.

Results

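Integrins are the membrane receptors through which mesenchymal cells hold on to their matrix, and 10 of their subunit genes were followed here in 49452 genes: the 7 alpha subunits Itga1, Itga5, Itga7, Itga8, Itga9, Itga11 and Itgav, and the 3 beta subunits Itgb1, Itgb3 and Itgb5. They were chosen by name as the subunits usually found on fibroblasts, smooth muscle cells and pericytes, with earlier results of these data known. tdTomato-positive cells were sorted from the left lung lobe of 16 mice in 4 groups of 4, and their RNA was sequenced. The *Acta2-tdT* line carried Acta2-CreERT2 and the *Pdgfra-tdT* line Pdgfra-CreERT2, a tamoxifen-dependent Cre recombinase under the promoter of Acta2 (alpha-smooth muscle actin, αSMA) or of Pdgfra, and all 16 mice carried the tdTomatoflox reporter and were given tamoxifen. *Acta2-tdT* mice received saline (mice 1 to 4) or bleomycin (mice 5 to 8) and, from day 5 after it, food with 400 mg/kg tamoxifen. *Pdgfra-tdT* mice received 5 intraperitoneal injections of 3 mg tamoxifen at 6 weeks of age, before saline (mice 1 to 4) or bleomycin (mice 5 to 8). All mice were 11 weeks old at day 14 of saline or bleomycin. The line, its promoter and its tamoxifen schedule cannot be told apart in any comparison between lines.

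An integrin is a pair of 1 alpha and 1 beta subunit. Itgb1 pairs with most of the alpha subunits studied here, whereas Itgb3 and Itgb5 pair with Itgav. The alpha subunit largely sets what is bound: collagen for Itga1 and Itga11, laminin for Itga7, fibronectin and related RGD-bearing proteins for Itga5, Itga8 and Itgav, and tenascin-C among others for Itga9. Integrins that hold Itgav are also known to release active TGF-beta from its latent complex in fibrotic lung.

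The values were FPKM (fragment densities per gene length and library size), made by the authors for each mouse without scaling between mice. The summed FPKM of 21950 nuclear protein-coding genes was 231058 to 463127 in bleomycin-treated *Acta2-tdT* mice and 28512 to 137952 in the other 12 mice. Every comparison is therefore given as deposited and after scaling each mouse to a protein-coding sum of 100000 (scaled FPKM). The scaling moved the median log2 difference of all genes tested from 1.76 to -0.03 for bleomycin against saline in *Acta2-tdT*, and from 1.81 to 0.23 between the bleomycin-treated lines. The 1445 olfactory and vomeronasal receptor genes, which lung cells are not known to use, gave a gauge of low values. Their 95th percentile was 2.56 to 2.90 FPKM in saline-treated *Acta2-tdT* mice and 0.518 to 2.04 in the bleomycin-treated ones. Of the 10 members, 1 was above this level in each saline-treated *Acta2-tdT* mouse, 6 to 10 in the bleomycin-treated *Acta2-tdT* mice and 0 in 6 of the 8 *Pdgfra-tdT* mice. Folds against saline in *Acta2-tdT* thus start from levels that this gauge does not set apart from silent genes, except for Itgb1; in saline-treated *Pdgfra-tdT* mice 1, 2 and 4 Itgb1 too was below it. Read counts were not among the values used, so depth was judged only from the Cufflinks bounds: taken as Poisson limits, they imply 559595 to 8288510 fragments on genes per mouse, highest in the bleomycin-treated *Acta2-tdT* mice (4728920 to 8288510).

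Markers of the sorted cells were read beside the members. Acta2 was at 139 to 314 FPKM in saline-treated and 1229 to 3211 FPKM in bleomycin-treated *Acta2-tdT* mice, against 0.831 to 19.4 FPKM in the *Pdgfra-tdT* mice. Pdgfra was at 2.14 to 3.82 FPKM in saline-treated and 0.977 to 2.45 FPKM in bleomycin-treated *Pdgfra-tdT* mice, against 0.273 to 0.562 and 2.49 to 11.9 FPKM in the *Acta2-tdT* mice. With saline it was lower in *Acta2-tdT* under both scalings (limma, -1.43 and -2.14, adjusted p = 0.00971 and 0.00634). With bleomycin it was higher in *Acta2-tdT* as deposited (1.60; limma, adjusted p = 0.00894) and did not pass after scaling (-0.43; adjusted p = 0.370), so the level of Pdgfra did not set the bleomycin-treated lines apart in the direction of their labels, and comparisons between them rest on the labels. Tcf21, a transcription factor of lung fibroblasts, was listed at 0 in 6 of the 8 *Pdgfra-tdT* mice and reached at most 0.345 FPKM in the *Acta2-tdT* mice. The 8 fibroblast markers summed to 25.0 to 98.1 scaled FPKM in saline-treated and 8.59 to 118 in bleomycin-treated *Pdgfra-tdT* mice, highest in saline mouse 3 and bleomycin mouse 5, against 53.1 to 68.4 in saline-treated *Acta2-tdT* mice. The 12 leukocyte markers summed to 2016 to 2928 scaled FPKM in saline-treated and 949 to 2004 in bleomycin-treated *Acta2-tdT* mice, to 1241 to 3205 in bleomycin-treated *Pdgfra-tdT* mice and to 75.8 to 367 in saline-treated *Pdgfra-tdT* mice. The 7 endothelial markers summed to 612 scaled FPKM in saline-treated *Pdgfra-tdT* mouse 3 and 701 in bleomycin-treated *Pdgfra-tdT* mouse 5, against 6.16 to 213 in the other 14 mice. These 2 libraries stood apart. The limma results that rest on them are given with and without them, whereas the shares are given with them only. In sorted bulk cells, fewer cells of a type and less RNA per cell cannot be told apart.

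Between bleomycin and saline in *Acta2-tdT* mice, the fibronectin receptor subunits Itga5 and Itgb1 had the largest differences of the members. As deposited, 8 of the 10 members were higher with bleomycin in limma's moderated test at an adjusted p under 0.05 without a filter on low values, all but Itga7 and Itgb3, as were 23.8% of 42342 genes. After scaling, 4 members were higher and 3 lower, against 6.48% and 35.3% of those genes. The median log2 difference of the 10 members was 1.75 as deposited, against -0.05 for all 42342 genes, and near 0 after scaling, against -0.38. The values of single members below come from the fit of the 12523 genes with at least 1 FPKM in at least 4 of the 8 mice, of which 70.4% were called higher as deposited, and 23.8% higher and 32.3% lower after scaling. In that fit Itga5, Itgb1, Itgb5 and Itga11 were higher after scaling, Itga1 and Itga8 were lower, and Itgav and Itga9 did not pass. Of the 8 members that passed, all but Itgb1 reached 4 of 8 mice only through the bleomycin group, Itga5 and Itgb5 among them, which makes a count over the members that passed no support for a rise. Itga7 and Itgb3 did not pass the filter.

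**Figure D1:**
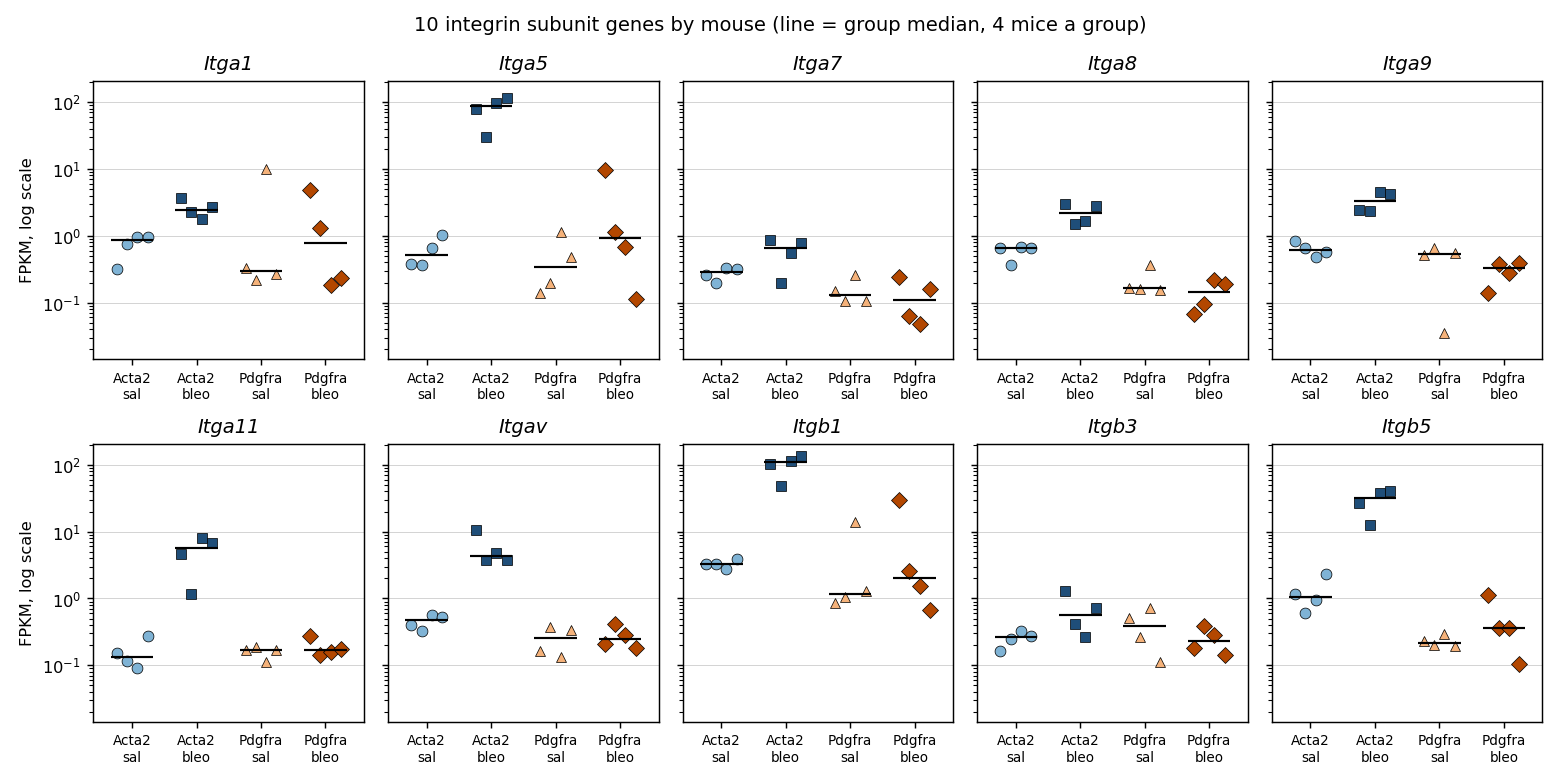
FPKM of the 10 subunit genes (1 panel each, log scale) in the 16 mice. Each point is a mouse and the line is the group median; sal is saline, bleo is bleomycin, and Acta2 and Pdgfra stand for the *Acta2-tdT* and *Pdgfra-tdT* lines. The 4 bleomycin-treated *Acta2-tdT* mice lie at 30.5 to 116 FPKM for Itga5 and 48.9 to 134 for Itgb1, above every other mouse.

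Itga5, the alpha subunit of the classical fibronectin receptor, was at 0.379, 0.362, 0.664 and 1.04 FPKM in the 4 saline-treated *Acta2-tdT* mice and at 78.0, 30.5, 96.4 and 116 FPKM in the 4 bleomycin-treated mice. The groups did not come near each other, and the Cufflinks bounds of single values ran from 0.247 to 1.21 FPKM with saline and from 29.4 to 118 FPKM with bleomycin. The difference was 5.52 ± 0.43 (SE, n = 4 against 4) on the log2(FPKM + 1) scale as deposited (limma, adjusted p = 1.14e-05) and 3.24 ± 0.26 after scaling (adjusted p = 2.09e-05). This was the largest difference of any member under both scalings. A pseudocount understates the change of low genes.

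Itgb1, the common beta partner, was at 3.32, 3.28, 2.72 and 3.94 FPKM with saline and at 104, 48.9, 113 and 134 FPKM with bleomycin. It was thus the highest member in each of the 8 *Acta2-tdT* mice, and the groups did not overlap. The log2 difference was 4.46 ± 0.39 as deposited (limma, adjusted p = 1.31e-05) and 1.71 ± 0.26 after scaling (adjusted p = 0.000358). Itgb5, which pairs with Itgav in a receptor for vitronectin, was at 1.17, 0.603, 0.937 and 2.31 FPKM with saline and at 26.6, 12.7, 37.6 and 40.6 FPKM with bleomycin. Again no saline-treated mouse reached a bleomycin-treated one. Its log2 difference was 3.68 ± 0.41 as deposited (limma, adjusted p = 2.46e-05) and 1.28 ± 0.27 after scaling (adjusted p = 0.00269). After scaling, the calls of Itga5, Itgb1, Itgb5 and Itga11 held without any single mouse, and with the receptor-gene level subtracted before scaling. Itga11 lay below the subtracted level in every saline-treated mouse, so for Itga11 the subtraction adds no support.

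Itga5, Itgb1 and Itgb5 had the largest differences under both scalings, and over the 16 mice Pearson's r of log2(scaled FPKM + 1) was 0.86 for Itgb1 with Itga5, 0.81 for Itgb5 with Itga5 and 0.70 for Itgb5 with Itgb1. These are descriptions over mice that share 4 groups, for genes named because they were high in the same group, and other pairs were as alike as the last of these, with 0.74 for Itga8 with Itga7 and 0.73 for Itgb5 with Itga11. The 250 bases before their RefSeq start (GRCm38.p6), printed 5′ to 3′ on the strand of the gene, are shown because these 3 genes had the largest differences. Itga5 lies on the minus strand (chr15:103366792-103367041), and Itgb1 (chr8:128685404-128685653) and Itgb5 (chr16:33829415-33829664) on the plus strand. Capitals mark matches on either strand to the Sp1 letters GGGCGG or, at the 3′ end of the Itgb1 stretch, to the TEAD letters GGAATG.
Itga5: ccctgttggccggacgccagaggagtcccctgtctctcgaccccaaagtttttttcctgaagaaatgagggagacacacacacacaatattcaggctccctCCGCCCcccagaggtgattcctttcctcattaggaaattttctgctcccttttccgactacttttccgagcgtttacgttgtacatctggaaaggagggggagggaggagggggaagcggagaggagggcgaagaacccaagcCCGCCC
Itgb1: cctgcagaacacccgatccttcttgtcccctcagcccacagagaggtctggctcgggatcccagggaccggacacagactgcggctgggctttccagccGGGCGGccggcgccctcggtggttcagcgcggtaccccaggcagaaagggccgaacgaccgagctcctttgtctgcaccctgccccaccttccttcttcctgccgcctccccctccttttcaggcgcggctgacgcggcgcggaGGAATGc
Itgb5: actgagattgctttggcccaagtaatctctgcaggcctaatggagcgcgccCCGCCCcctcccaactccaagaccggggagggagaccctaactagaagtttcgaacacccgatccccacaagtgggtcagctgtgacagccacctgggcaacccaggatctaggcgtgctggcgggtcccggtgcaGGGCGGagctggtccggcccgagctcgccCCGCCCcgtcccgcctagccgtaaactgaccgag
The Sp1 letters occurred 2 times before Itga5, 1 time before Itgb1, 3 times before Itgb5 and 0 times before the other 5 members with an entry, so that 3 of 8 held them. Of the 32851 promoters in the RefSeq table, 32.7% held them in the same window. The TEAD letters were found before Itgb1 alone of the 8 members in that table (12.6% of all promoters), and the AP-1 letters TGANTCA before none of the 8 (6.75% of all promoters). No marked matches overlapped. Itga7 and Itgb3 had no entry. The Itga9 window (chr9:118711442-118711691) precedes a RefSeq start inside the locus given with its FPKM (chr9:118606690-118901003). It is therefore not the stretch before the start of that locus.

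The collagen receptor subunits did not move as a pair. Itga11, which is typical of collagen-producing fibroblasts, was at 0.151, 0.115, 0.0909 and 0.277 FPKM with saline and at 4.61, 1.18, 7.92 and 6.82 FPKM with bleomycin. Every bleomycin-treated mouse was above every saline-treated mouse. Its log2 difference was 2.22 ± 0.39 as deposited (limma, adjusted p = 0.000362) and 0.74 ± 0.20 after scaling (adjusted p = 0.00951). Itga1 was at 0.314, 0.757, 0.962 and 0.974 FPKM with saline and at 3.66, 2.27, 1.81 and 2.65 FPKM with bleomycin. It was higher by 1.03 ± 0.23 as deposited (limma, adjusted p = 0.00165) but lower by -0.57 ± 0.22 after scaling (adjusted p = 0.0460), so its direction turned with the scaling, and with all 16 mice in 1 fit it passed in neither direction (adjusted p = 0.126 as deposited and 0.470 scaled). Of the fits that left out a mouse, the lower call of Itga1 was kept in those without saline mouse 1 or bleomycin mouse 5, and its adjusted p reached 0.130 in the others; with the receptor-gene level subtracted before scaling the difference was -0.13 (adjusted p = 0.719).

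Itga8 and Itgav, the other RGD-binding alpha subunits, were higher as deposited and not after scaling in this fit. Itga8, a subunit of contractile mesenchymal cells, was at 0.652, 0.369, 0.686 and 0.647 FPKM with saline and at 2.98, 1.5, 1.66 and 2.75 FPKM with bleomycin. It was higher by 0.99 ± 0.21 as deposited (limma, adjusted p = 0.00118) and lower by -0.51 ± 0.16 after scaling (adjusted p = 0.0216); the lower call was lost without saline mouse 1, bleomycin mouse 7 or bleomycin mouse 8, with an adjusted p of up to 0.0738, and with the receptor-gene level subtracted the difference was 0.0041. Itgav was at 0.403, 0.325, 0.562 and 0.534 FPKM with saline and at 10.5, 3.80, 4.81 and 3.77 FPKM with bleomycin, with bleomycin-treated mouse 5 apart from the other 3. Its log2 difference was 2.11 ± 0.30 as deposited (limma, adjusted p = 9.02e-05) and 0.35 ± 0.26 after scaling (adjusted p = 0.272), or 1.0 with the receptor-gene level subtracted first (adjusted p = 0.00996).

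Itga9, the receptor subunit for tenascin-C, was at 0.825, 0.653, 0.484 and 0.566 FPKM with saline and at 2.45, 2.35, 4.49 and 4.23 FPKM with bleomycin. The groups did not overlap as deposited, with a difference of 1.39 ± 0.23 (limma, adjusted p = 0.000245). After scaling the difference was -0.35 ± 0.19 (adjusted p = 0.153). Itga7, the laminin receptor subunit of muscle cells, stayed at 0.197 to 0.335 FPKM with saline and 0.197 to 0.868 FPKM with bleomycin, and Itgb3 at 0.167 to 0.329 FPKM and 0.263 to 1.29 FPKM. Without the filter on low values neither passed as deposited, and both were lower after scaling, as was Itga8. Itga7 overlaps Mettl7b, Itga1 overlaps Pelo, and Itga5, Itga8, Itga9 and Itgav also overlap other annotated genes. The library protocol is not stranded, so reads from such partners cannot be told apart.

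**Figure D2:**
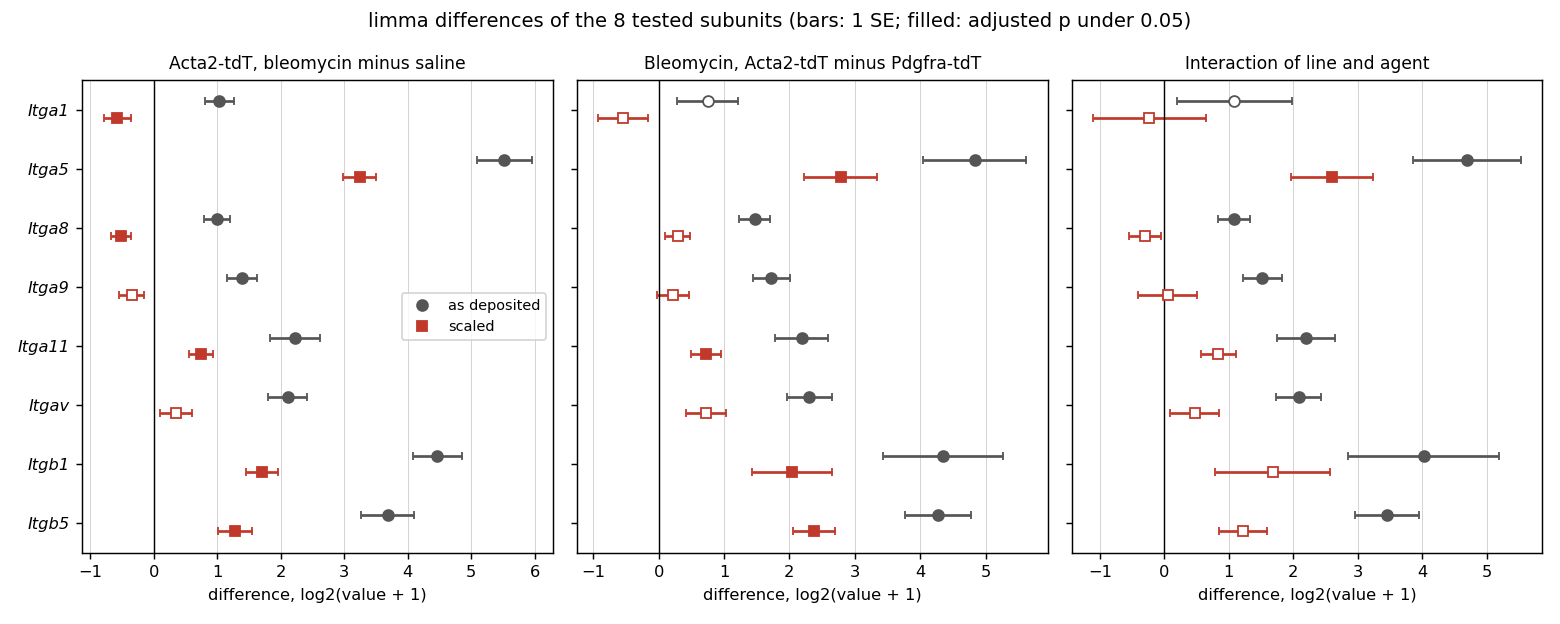
limma differences of the 8 tested subunits on the log2(value + 1) scale, as deposited (grey circles) and scaled (red squares), for bleomycin against saline in *Acta2-tdT*, for the lines with bleomycin and for the interaction of line and agent. Bars are 1 SE and filled symbols passed an adjusted p of 0.05; Itga5 is filled in each panel, at 5.52 and 3.24 in the left one.

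The make-up of the alpha subunits does not depend on the scaling between mice, and it was described as the share of each subunit in the summed FPKM of the 7 alpha genes. In saline-treated *Acta2-tdT* mice no alpha subunit dominated. Itga1 took 21.4% ± 7.52 (SD, n = 4), Itga9 19.3% ± 7.53, Itga8 17% ± 3.80 and Itga5 16.8% ± 5.22. In bleomycin-treated *Acta2-tdT* mice Itga5 took 78.8% ± 5.41, with single mice between 73.0% and 84.6%. The shares of Itga1 (3.11% ± 1.77), Itga8 (2.47% ± 0.958), Itga9 (3.73% ± 1.39), Itga7 (0.587% ± 0.177) and Itgav (6.54% ± 3.66) were lower. The Itga5 groups did not overlap, with p = 0.0286 in an exact two-sided permutation test, the smallest that 70 labellings of 8 mice can give. The alpha shares sum to 100% in each mouse, so a higher share of Itga5 lowers the others together, and their falls are not separate results. The share of Itga11 was 4.76% with bleomycin and 4.50% with saline (exact permutation p = 0.771).

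The beta shares changed little beside this. Itgb1 took 69.8% ± 7.87 of the summed beta FPKM with saline and 77.2% ± 1.94 with bleomycin (exact permutation p = 0.143), and Itgb5 24.7% ± 8.53 and 22.2% ± 2.27 (exact permutation p = 0.629). Itgb3 took 5.54% ± 2.09 and 0.558% ± 0.345, with no overlap (exact permutation p = 0.0286). The saline shares are shares of low values: the implied fragments on Itga5 were 39.5 to 156 in these mice and 2991 to 9942 with bleomycin. With each mouse's median receptor-gene FPKM subtracted first, Itga5 still differed by 63.7 percentage points (exact permutation p = 0.0286). The shares of Itga7 (0.44 points, exact permutation p = 0.0571) and Itgb3 (0.49 points, exact permutation p = 0.0286) then turned to higher with bleomycin, and the fall of Itgav was -1.28 points (exact permutation p = 0.714). With saline, Itgb3 lay below the subtracted level in every mouse and Itga7 in all but mouse 3. The subtraction left no value there, so the turns of Itga7 and Itgb3 and their p-values follow from it.

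**Figure D3:**
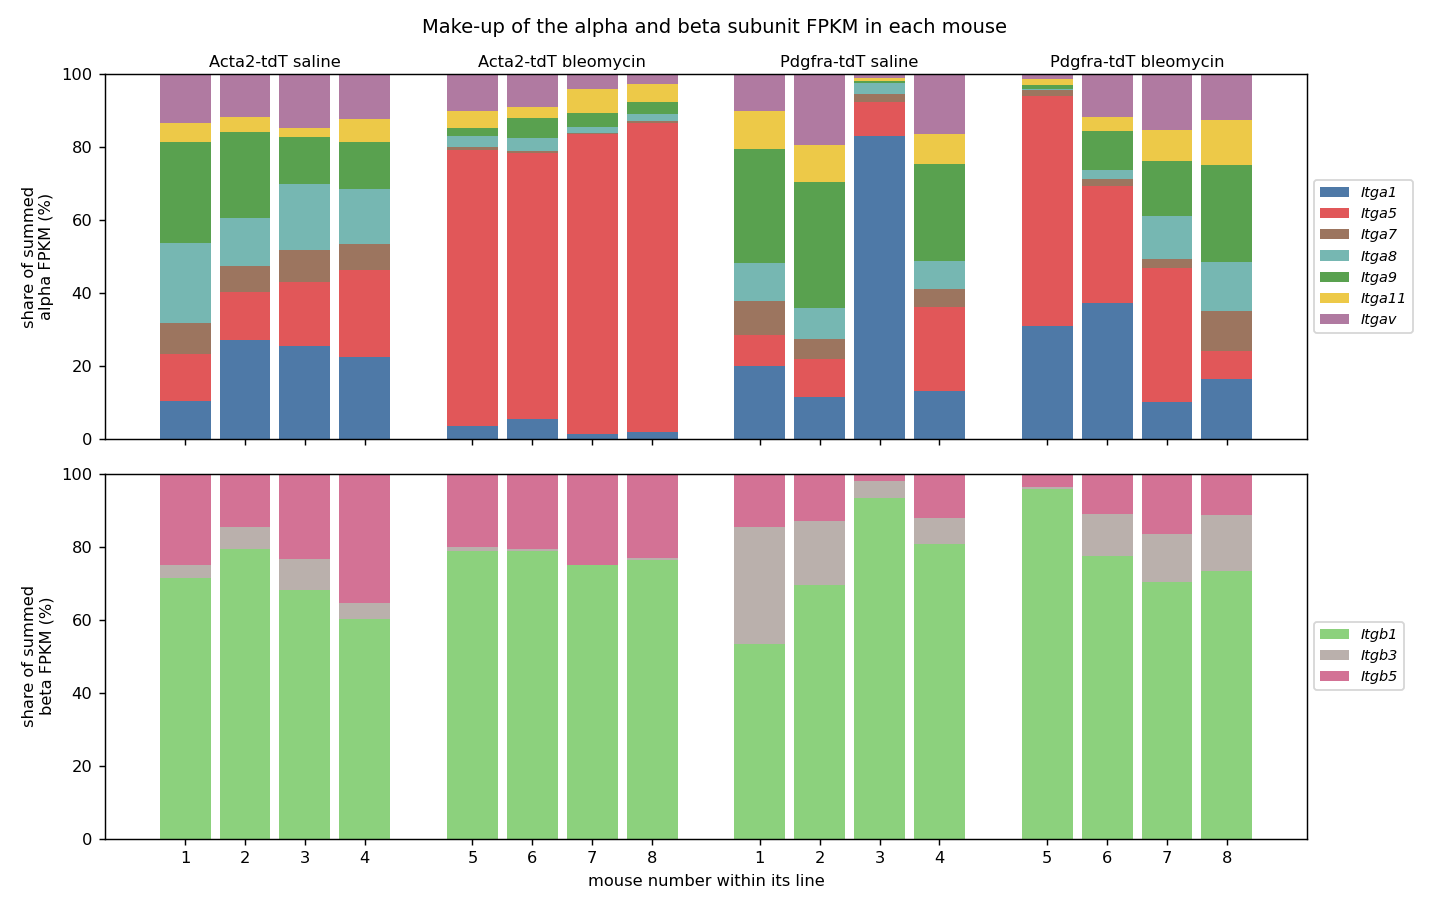
Share of each subunit in the summed FPKM of the 7 alpha genes (top, %) and of the 3 beta genes (bottom, %) in each of the 16 mice, 1 bar a mouse. Itga5 fills 73.0% to 84.6% of the alpha bars of bleomycin-treated *Acta2-tdT* mice, and Itga1 fills 83.0% in saline-treated *Pdgfra-tdT* mouse 3.

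Ratios within a mouse showed the same change in make-up. The FPKM ratio of Itga5 to Itga1 was 0.478 to 1.21 in saline-treated and 13.5 to 53.2 in bleomycin-treated *Acta2-tdT* mice. The ratio of Itga5 to Itgb1 was 0.110 to 0.264 and 0.625 to 0.866. The 7 alpha genes together reached 0.847 to 1.39 times Itgb1 with saline and 0.856 to 1.04 times with bleomycin. The saline ratios rest on alpha levels not set apart from those of the olfactory and vomeronasal receptor genes, whose median was 0.323 to 0.332 FPKM in these mice, so closeness of the alpha sum to Itgb1 cannot be read from them.

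Between the lines with bleomycin, the question was whether the labelled cells of the 2 lines carried different integrins in fibrotic lung. Without the filter 7 of 10 members were higher in *Acta2-tdT* as deposited, against 19.4% of 40888 genes, and 2 of 10 after scaling, Itga5 and Itgb5, against 1.72%. The median log2 difference of the 10 members was 1.96 as deposited, against -0.02 for all genes, and 0.51 after scaling, against -0.31. Among the 11995 genes that passed the filter, 71% were higher as deposited and 15.3% after scaling. In that fit Itga1 was the 1 tested member not higher as deposited, and Itga5, Itgb5, Itgb1 and Itga11 were higher after scaling; as above, the low members passed the filter through the *Acta2-tdT* group. The 8 fibroblast markers summed to 447 to 680 scaled FPKM in *Acta2-tdT* and 8.59 to 118 in *Pdgfra-tdT*, and without the filter 6 of the 8 were higher in *Acta2-tdT* as deposited and 4 after scaling. This sum moved with the members, and its part in their differences was not tested.

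In bleomycin-treated *Pdgfra-tdT* mice Itga5 was at 9.67, 1.15, 0.680 and 0.113 FPKM. All 4 values were below the lowest bleomycin-treated *Acta2-tdT* mouse, at 30.5 FPKM. The log2 difference was 4.83 ± 0.79 (SE, n = 4 against 4) as deposited (limma, adjusted p = 0.000371) and 2.79 ± 0.56 after scaling (adjusted p = 0.00497). Itgb5 was at 1.13, 0.363, 0.358 and 0.105 FPKM in the same mice, with a difference of 4.27 ± 0.50 as deposited (limma, adjusted p = 7.62e-05) and 2.37 ± 0.32 after scaling (adjusted p = 0.00115). Both calls held without any single mouse.

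Itgb1 was at 29.4, 2.55, 1.51 and 0.684 FPKM in bleomycin-treated *Pdgfra-tdT* mice, with mouse 5, one of the 2 libraries high in endothelial markers, above the other 3. The log2 difference was 4.36 ± 0.92 as deposited (limma, adjusted p = 0.00142) and 2.04 ± 0.61 after scaling (adjusted p = 0.0284). In scaled FPKM, *Pdgfra-tdT* mouse 5 reached 21.3 and so overlapped the *Acta2-tdT* mice at 21.1 to 32.7. After scaling, Itgb1 passed without *Pdgfra-tdT* mouse 5 or mouse 8 and did not pass without any other single mouse, with adjusted p from 0.000772 to 0.0770. Itga11, at 0.143 to 0.277 FPKM in *Pdgfra-tdT*, differed by 2.19 ± 0.41 as deposited (limma, adjusted p = 0.000765) and 0.73 ± 0.23 after scaling (adjusted p = 0.0354); after scaling it passed without *Acta2-tdT* mouse 6, *Pdgfra-tdT* mouse 5 or *Pdgfra-tdT* mouse 8 and without no other, with adjusted p from 0.0153 to 0.0926.

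Itgav, Itga9 and Itga8 passed between the bleomycin-treated lines as deposited and not after scaling. Itgav, at 0.183 to 0.416 FPKM in *Pdgfra-tdT*, differed by 2.30 ± 0.35 as deposited (limma, adjusted p = 0.000237) and 0.73 ± 0.30 after scaling (adjusted p = 0.0881); with all 16 mice in 1 fit, where 18.6% of genes were higher, it passed after scaling too (adjusted p = 0.0382). Itga9 differed by 1.73 ± 0.28 (limma, adjusted p = 0.000349) and 0.22 ± 0.24 (adjusted p = 0.496), and Itga8 by 1.47 ± 0.24 (limma, adjusted p = 0.000379) and 0.29 ± 0.19 (adjusted p = 0.251). Itga1 was at 4.77, 1.33, 0.187 and 0.237 FPKM in *Pdgfra-tdT* and differed by 0.75 ± 0.47 as deposited (limma, adjusted p = 0.158) and -0.55 ± 0.38 after scaling (adjusted p = 0.281). Without *Pdgfra-tdT* mouse 5, Itga1 was higher in *Acta2-tdT* as deposited, with 1.23 and an adjusted p of 0.00388. With the receptor-gene level subtracted before scaling, 7 of the 8 tested members were higher, all but Itga1, against 24.4% of genes. The low members had entered this fit through the *Acta2-tdT* group. The subtracted level was 0.0920 to 0.317 FPKM in *Pdgfra-tdT* and 0.0134 to 0.122 FPKM in *Acta2-tdT*. It thus took more from the low *Pdgfra-tdT* values, and this count is no support for higher members.

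The alpha shares also differed between the bleomycin-treated lines. Itga5 took 34.9% ± 22.6 (SD, n = 4) of the alpha sum in *Pdgfra-tdT*, between 7.84% and 62.9%, and did not overlap *Acta2-tdT*. Itga1 took 23.7% ± 12.6 in *Pdgfra-tdT* and 3.11% in *Acta2-tdT*, and Itgb5 10.6% ± 5.33 of the beta sum against 22.2%, also without overlap. Each of these had an exact permutation p of 0.0286, not adjusted for the 10 shares tested. The Itga5 and Itga1 shares are tied through their sum. With the receptor-gene level subtracted, the Itga5 and Itga1 shares no longer passed (27.6 points, exact permutation p = 0.286, and -17.5 points, p = 0.429), while Itgb5 was higher in *Acta2-tdT* by 19.6 points and Itgb1, of the same sum, lower by -19.3 (exact permutation p = 0.0286). The shares of Itga8 and Itga11 turned from lower to higher in *Acta2-tdT*, by 2.40 and 4.37 points (exact permutation p = 0.0286), and that of Itga7 by 0.23 points (exact permutation p = 0.486). In bleomycin-treated *Pdgfra-tdT*, Itga8 lay below the subtracted level in every mouse and Itga11 in all but mouse 5. The subtraction left no value there, so the turns of Itga8 and Itga11 and their p-values follow from it.

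The interaction of line and agent tested whether bleomycin changed the members differently in the 2 lines. As deposited and without the filter, 7 of 10 members had a larger change in *Acta2-tdT*, against 11.4% of 44499 genes, and after scaling 0 of 10 (limma), against 0.189%. In the fit of 16605 genes that passed the filter, 36.6% had a larger change as deposited. Itga5 had an interaction of 4.69 ± 0.84 on the log2(FPKM + 1) scale (limma, adjusted p = 0.000827), Itgb1 of 4.02 ± 1.17 (adjusted p = 0.0148) and Itgb5 of 3.45 ± 0.50 (adjusted p = 0.000209). After scaling, Itga5 alone passed, with 2.60 ± 0.63 (limma, adjusted p = 0.0435), against 1.19% of genes. This call was lost when any 1 mouse other than *Acta2-tdT* bleomycin mouse 6 or *Pdgfra-tdT* bleomycin mouse 5 was left out, with adjusted p of up to 0.108, and also with a pseudocount of 0.1 and without the filter. Without both libraries high in endothelial markers, 4 members passed after scaling, against 3.65% of genes: Itga5 at 2.88 (limma, adjusted p = 0.00280), Itgb1 at 1.62 (adjusted p = 0.0154), Itgb5 at 1.30 (adjusted p = 0.0256) and Itga11 at 0.87 (adjusted p = 0.0399).

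In saline-treated lung the members were low in both lines, and 1 of the 10, Itgb1, passed the filter. Itgb1 was at 0.850, 1.06, 14.2 and 1.29 FPKM in *Pdgfra-tdT* mice, against 2.72 to 3.94 FPKM in *Acta2-tdT*. The values of 3 *Pdgfra-tdT* mice were below the *Acta2-tdT* group and that of mouse 3 was above it. The log2 difference was 0.34 ± 0.66 as deposited (limma, adjusted p = 0.859) and 0.36 ± 0.62 after scaling (adjusted p = 0.821); 2.91% and 3.25% of 8153 genes were called. Without *Pdgfra-tdT* mouse 3, Itgb1 was higher in *Acta2-tdT* by 1.06 as deposited (limma, adjusted p = 0.00604) and by 0.99 after scaling (adjusted p = 0.0155). Without the filter limma called 0 of the 10 members under either scaling, and 0.135% and 0.31% of 43598 genes. Itga8 and Itgb5 were at an unadjusted p under 0.05, as were 3387 of these genes as deposited and 3585 after scaling.

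The alpha share of Itga8 was 17% ± 3.80 in saline-treated *Acta2-tdT* mice and 7.37% ± 3.09 in *Pdgfra-tdT* mice and did not overlap (exact permutation p = 0.0286). It was 1 of 10 shares tested in this comparison. Itga8 was at 0.168, 0.160, 0.369 and 0.156 FPKM in the *Pdgfra-tdT* mice, against 0.369 to 0.686 FPKM in *Acta2-tdT*. Itgb5 took 24.7% ± 8.53 and 10.4% ± 5.78 of the beta sum (exact permutation p = 0.0571). With the receptor-gene level subtracted the shares differed by 18.3 points for Itga8 and 21.3 points for Itgb5, each with an exact permutation p of 0.0286. Both genes lay below the subtracted level in every saline-treated *Pdgfra-tdT* mouse but mouse 3. The subtraction left no value there, so the wider differences are no added support.

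Bleomycin in *Pdgfra-tdT* mice was not accompanied by a detectable change of any member. Itgb1 was again the 1 member tested, with a log2 difference of 0.45 ± 1.04 as deposited (limma, adjusted p = 0.874) and 0.03 ± 0.83 after scaling (adjusted p = 0.989). Over all 7275 genes 0.124% were called as deposited and 0.151% after scaling, so few genes of any kind passed in these 8 mice. Without *Pdgfra-tdT* bleomycin mouse 5 the difference of Itgb1 was -0.46 as deposited and -0.55 after scaling, and without saline mouse 3 it was 1.17 and 0.66, none past the threshold, so its direction turned with which of the 2 libraries was left out. No share of any member passed (exact permutation p from 0.143 to 0.943). Without the filter limma called 0 of 10 members, and 0.00466% and 0.0186% of 42954 genes. No member was at an unadjusted p under 0.05, against 1422 of these genes as deposited and 1698 after scaling.

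The order of the groups followed from these levels. By median FPKM, bleomycin-treated *Acta2-tdT* mice were the highest group for all 10 genes. Orders and overlaps were not counted over all genes, so those given here describe the members only. In limma's test of bleomycin against saline in *Acta2-tdT*, 23.8% of 42342 genes were higher as deposited without the filter, and 70.4% of those that passed it. For Itga1, saline-treated *Pdgfra-tdT* mouse 3 (9.97 FPKM) and bleomycin-treated mouse 5 (4.77 FPKM) were above every bleomycin-treated *Acta2-tdT* mouse. Leaving aside Itga7 and Itgb3, the other 3 groups overlapped their neighbours in the order for 7 of 8 genes, Itga8 being the exception, for which the lowest saline-treated *Acta2-tdT* mouse and the highest *Pdgfra-tdT* mouse were both at 0.369 FPKM to 3 digits. In scaled FPKM, bleomycin-treated *Acta2-tdT* mice stayed the highest group for Itga5, Itga11, Itgav, Itgb1 and Itgb5, of which Itga5, Itgb1 and Itgb5 did not overlap the next group by median, although 1 mouse of each *Pdgfra-tdT* group reached the range of Itgb1. By median scaled FPKM the highest group was saline-treated *Acta2-tdT* for Itga1, Itga7 and Itga8 and saline-treated *Pdgfra-tdT* for Itga9 and Itgb3. For Itga7, *Pdgfra-tdT* bleomycin mouse 8 (0.552) lay above the lowest mouse of the highest group (0.549).

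The 2 *Pdgfra-tdT* libraries high in endothelial markers had their own integrin make-up. Cldn5, an endothelial tight junction gene, was at 246 FPKM in saline-treated mouse 3 and 741 FPKM in bleomycin-treated mouse 5, and Pecam1 at 39.1 and 65.9 FPKM. In saline-treated mouse 3, Itga1 was at 9.97 FPKM, 83.0% of its alpha sum, against 0.216 to 0.326 FPKM in the other 3 mice of its group. In bleomycin-treated mouse 5, Itga5 took 62.9% of the alpha sum, Itga1 31.0% and Itgb1 95.7% of the beta sum. Itgb1 was highest of its group in both libraries. Itga6, a laminin receptor subunit that was not a member, was at 7.92 and 11.8 FPKM in them, against 0.160 to 4.82 FPKM in the other 14 mice. The part of endothelial RNA in these members' levels was not tested.

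**Figure D4:**
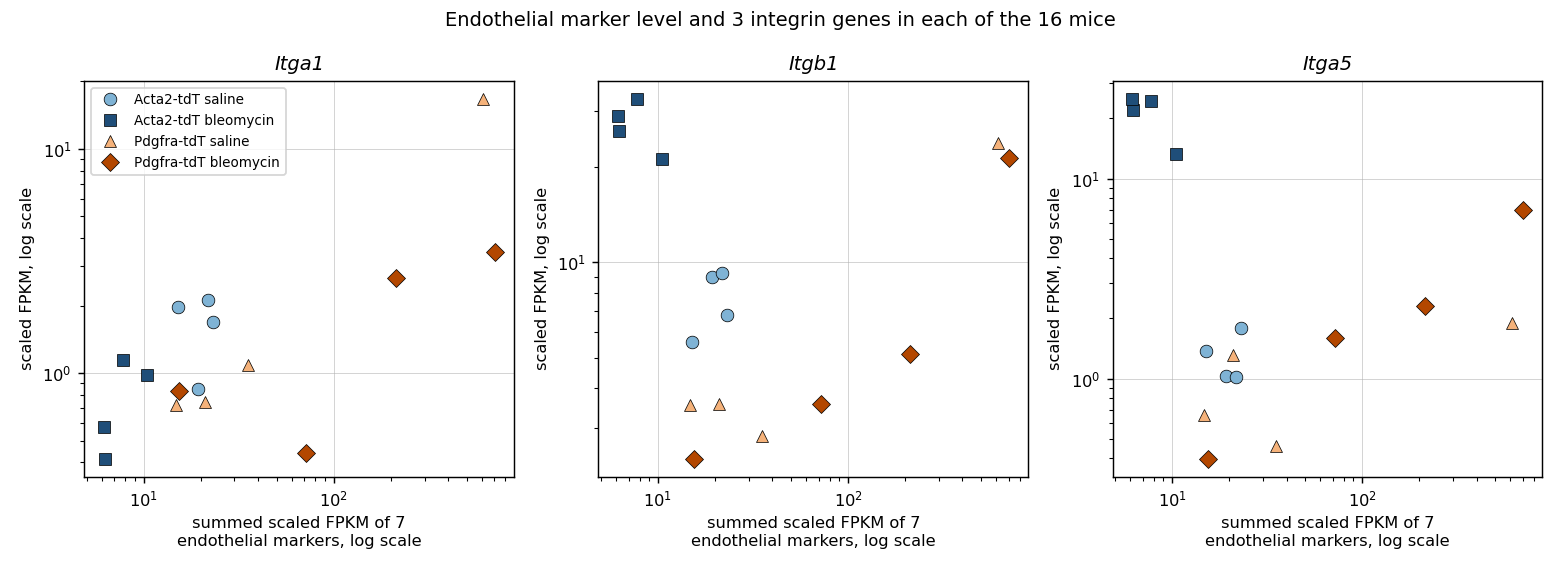
Scaled FPKM of Itga1, Itgb1 and Itga5 (log scale) against the summed scaled FPKM of 7 endothelial markers (log scale) in the 16 mice. The 2 *Pdgfra-tdT* mice at sums of 612 and 701 have Itgb1 at 23.7 and 21.3 scaled FPKM; the 4 bleomycin-treated *Acta2-tdT* mice reach 21.1 to 32.7 at sums of 6.16 to 10.5.

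Sums of cell type markers in *Acta2-tdT* mice depended on the scaling, as the members did. As deposited, bleomycin-treated mice were above saline-treated mice without overlap for 6 of the 7 sums. The 7 epithelial markers overlapped, at 294 to 1531 FPKM with bleomycin and 44.4 to 785 with saline, the latter highest in mouse 3. The other 6 sums follow. The 8 fibroblast markers summed to 1032 to 3148 FPKM with bleomycin and 19.6 to 39.5 with saline, and the 7 smooth muscle markers to 2040 to 5361 and 325 to 751. The 6 pericyte markers summed to 33.2 to 79.3 FPKM and 7.08 to 17.2, the 12 leukocyte markers to 4332 to 6377 and 718 to 1422, and the 7 endothelial markers to 24.2 to 28.5 and 7.12 to 13.3. The platelet marker sum was at 112 to 350 FPKM and 9.99 to 55.9, and Itga2b, the platelet integrin subunit, was at 0.568 to 4.55 FPKM with bleomycin. After scaling, the fibroblast sum alone of these 6 was higher without overlap, at 447 to 680 scaled FPKM against 53.1 to 68.4. The leukocyte sum (949 to 2004 against 2016 to 2928), the pericyte sum (14.4 to 17.7 against 19.9 to 29.8) and the endothelial sum (6.16 to 10.5 against 15.1 to 23.0) were then lower without overlap, and the smooth muscle sum (752 to 1158 against 882 to 1299) and the platelet sum (35.1 to 80.3 against 27.1 to 96.8) overlapped. The part of these cell types in the members' differences was not tested.

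Most ligands of these receptors were higher in the same mice. Without the filter, 21 of 22 ligand genes were higher and 0 lower with bleomycin in *Acta2-tdT* as deposited, against 23.8% of genes higher, and 15 were higher and 2 lower after scaling, against 6.48% and 35.3%. Their median log2 difference after scaling was 1.59, against -0.38 for all genes. Values of single genes of this and the other lists are from the fit with the filter, which some of them, Fn1 included, passed through the bleomycin group. Fn1, the ligand of the Itga5 receptor, went from 0.428 to 0.616 FPKM with saline to 90.8 to 244 FPKM with bleomycin, a scaled log2 difference of 4.52 ± 0.22 (limma, adjusted p = 4.71e-06). Spp1 (osteopontin) differed by 5.92 (limma, adjusted p = 5.05e-06) and Col1a2 (a collagen I chain) by 4.28 (adjusted p = 7.46e-06). Vtn, the vitronectin gene, was lower by -1.02 as deposited (limma, adjusted p = 0.0176), a call that was lost without the filter, and by -2.48 after scaling (adjusted p = 3.14e-05), while Itgb5 was higher. Between the bleomycin-treated lines 11 of 22 ligands were higher in *Acta2-tdT* after scaling without the filter, against 1.72% of genes, and none was lower; with the filter the smallest adjusted p were those of Thbs1 (5.28), Tnc (3.46) and Postn (5.71).

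Among 20 adhesion adaptors, the proteins that link integrin tails to actin, 19 were higher with bleomycin in *Acta2-tdT* as deposited without the filter, against 23.8% of genes. After scaling 9 were higher, against 6.48%, and 2 lower, against 35.3%. With the filter the smallest adjusted p of those higher were those of Actn4 (2.01; limma, adjusted p = 0.000140), Parva (1.55; adjusted p = 0.000782) and Bcar1 (0.93; adjusted p = 0.000889), and Lims2 and Tns1 were lower. Between the bleomycin-treated lines 4 of 20 were higher in *Acta2-tdT* after scaling without the filter, against 1.72% of genes, and none was lower; with the filter Parva (2.05), Tns3 (1.22) and Zyx (1.79) had the smallest adjusted p. Without the filter the interaction passed for 9 of 20 as deposited, against 11.4% of genes, and for 0 after scaling (limma). After scaling 4 adaptors were at an unadjusted p under 0.05, as were 5711 of all 44499 genes. Of 8 carriers and forms of latent TGF-beta, 4 were higher with bleomycin in *Acta2-tdT* after scaling without the filter, against 6.48% of genes, and with it the smallest adjusted p were those of Ltbp1 (2.34; limma, adjusted p = 3.11e-05), Tgfb2 (1.56; adjusted p = 0.000175) and Ltbp2 (1.58; adjusted p = 0.00128). Between the bleomycin-treated lines 7 of 8 were higher in *Acta2-tdT* as deposited and 6 after scaling without the filter, against 19.4% and 1.72% of genes, with filtered differences of 3.81 for Ltbp2, 2.30 for Ltbp3 and 2.62 for Tgfb2 after scaling. Itgav, a subunit of receptors that bind these latent complexes, did not pass after scaling in either comparison as fitted here, with the exceptions given for it above.

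Of the 16 other integrin subunits, 8 were higher and 0 lower with bleomycin in *Acta2-tdT* as deposited without the filter, against 23.8% of genes higher, and 1 was higher and 7 were lower after scaling, against 6.48% and 35.3%. The leukocyte subunit Itgb2 was at 1.15 to 2.22 FPKM with saline and 18.1 to 98.5 FPKM with bleomycin, a scaled log2 difference of 1.52 (limma, adjusted p = 0.00996). Itga4, which also pairs with Itgb1 and binds fibronectin, was at 1.77 to 2.22 FPKM with saline and 0.511 to 1.44 FPKM with bleomycin. It was lower by -0.54 as deposited (limma, adjusted p = 0.0328), a call that was lost without the filter, and by -2.04 after scaling (adjusted p = 3.01e-05). Itgal, of lymphocytes, was higher as deposited (1.08) and lower after scaling (-0.58). Between the bleomycin-treated lines Itga4 (-1.66) and Itga6 (-1.45) were lower in *Acta2-tdT* after scaling, the call of Itga6 being lost without the filter, and as deposited they differed by -0.39 and -0.09, neither past the threshold.

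Bleomycin in *Pdgfra-tdT* mice gave 0 calls among the 10 ligands, 4 adaptors and 2 other subunits tested (limma). In this comparison 0.124% of all 7275 genes were called as deposited and 0.151% after scaling. There were 2 ligands at an unadjusted p under 0.05, as were 312 of all genes as deposited and 323 after scaling. The 22 ligands summed to 278 to 3331 scaled FPKM with bleomycin and 35.2 to 201 with saline, without overlap. The 0 calls thus do not show unchanged ligands. In saline-treated lung, the lines differed after scaling, where 3.25% of 8153 genes were called in either direction, for some genes of these lists: 2 of 13 tested ligands (Vtn and Lama4), 2 of 12 adaptors (Zyx and Itgb1bp1) and Ltbp2 were higher in *Acta2-tdT*. Without the filter 1 ligand, 1 adaptor and 0 carriers were (limma), where 0.31% of genes were called in either direction. Of the 8 carriers, 5 were at an unadjusted p under 0.05, as were 3585 of all 43598 genes. In the interaction after scaling without the filter, 6 of 22 ligands and 2 of 8 TGF-beta carriers had a larger change in *Acta2-tdT*, against 0.189% of genes, and 1 ligand a smaller; with the filter the smallest adjusted p were those of Tnc, Fn1 and Col1a1 among the ligands and of Ltbp1, Tgfb2 and Ltbp2 among the carriers.

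Genes whose pattern over the 16 mice was most like each member were taken among 10364 nuclear protein-coding genes, by Pearson's r of log2(scaled FPKM + 1). For Itga5 they were Kctd11 (0.986), Fkbp9 (0.982) and the integrin ligand Emilin1 (0.981). For Itgb1 they were Nes (0.980), Mta2 (0.979) and Scd2 (0.979), and for Itgb5 Bmp1 (0.972), Sdc4 (0.967) and Fstl3 (0.963). Itga11 was closest to Uhrf1 (0.926), Itga1 to Smurf2 (0.932), Itga8 to Neo1 (0.904), Itga7 to Cyp2e1 (0.892), Itgav to Tnfrsf11b (0.891), Itga9 to Ccl25 (0.883) and Itgb3 to Cdk12 (0.854). All points share the 4 groups and the scaling, and the low members have little above the receptor-gene level to be alike in.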

How the data were processed

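RNA of sorted tdTomato-positive lung cells was sequenced from 16 mice after SmartSeq2 library preparation, which keeps no strand. Per the labels and methods, the authors mapped reads to GRCm38 (mm10) using Bowtie2 2.2.9 through TopHat2 2.1.1, and Cufflinks 2.1.1 then gave FPKM and its bounds for each mouse; these deposited FPKM were used. Rows of a gene were summed (49534 rows, 49452 genes), and 15 genes with a failed or too deep estimate in any mouse were left out. No mice had identical values.

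Differences were tested with limma 3.58.1 in R 4.3.3 (lmFit, eBayes with trend) on log2(value + 1), with Benjamini-Hochberg adjustment over all genes tested. Genes entered a fit if 4 or more of its 8 mice (16 for the interaction) had 1 FPKM or more. Shares were compared by exact two-sided permutation over 70 labellings, with p given unadjusted; Python 3.11.15, pandas 2.3.3, NumPy 2.4.6, SciPy 1.17.1 and matplotlib 3.10.9 were used. The authors' Cuffdiff test could not be run on FPKM. Genes named beside the members are the 3 of a list with the smallest adjusted p in a scaled comparison, where called, and the 3 most alike in pattern; Lims2, Tns1, Itga2b and Itga6 in the endothelial-high libraries were named after their values were seen. Of listed symbols, 1 matched 2 genes, and the gene with the larger mean was used. In data simulated for bleomycin against saline in *Acta2-tdT* (12523 genes), 145 of 200 genes changed by 2 on the log2 scale were recovered with 8 false calls, none of 200 changed by 1, and no call was made with nothing changed. At most 200 genes were changed there, whereas 7020 of 12523 were called in the measured comparison after scaling. Recovery with so many genes changed, or of the members themselves, was not tested. Alternatives were another pseudocount, no filter, sample weights, 1 fit of all mice, leaving out each mouse, a replicate block, subtraction of the receptor-gene level from the shares and, chosen after seeing the data, the same subtraction before scaling and removal of both libraries high in endothelial markers. The members and lists were chosen with earlier results of these data known. Each mouse is 1 library, so p-values measure the spread between mice. RefSeq (GRCm38.p6) gave the promoter sequences, matched by symbol for 8 of the 10 members.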

Additional observations from a re-analysis of the deposited data

Results flagged for a closer look

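Values far from the other 3 mice of their group were looked for in 80 groups of 4 values, as deposited and scaled, and 12 were found by Dixon's test; chance gives about 1 in 20. Of these, 8 belonged to the *Pdgfra-tdT* libraries high in endothelial markers, saline mouse 3 and bleomycin mouse 5. In saline mouse 3, Itga1 was at 9.97 FPKM (16.7 scaled), Itgb1 at 14.2 FPKM (23.7 scaled) and Itga8 at 0.369 FPKM. In bleomycin mouse 5, Itga5 was at 9.67 FPKM and Itgb1 at 29.4 FPKM (21.3 scaled). In *Acta2-tdT* mice, Itgav stood at 10.5 FPKM in bleomycin mouse 5, Itga8 at 0.369 FPKM in saline mouse 2 and Itgb5 at 5.51 scaled FPKM in bleomycin mouse 6, the lowest of its group. Itga7 was at 0.552 scaled FPKM in *Pdgfra-tdT* bleomycin mouse 8.

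The effect of bleomycin differed between the lines, by limma's interaction on the log2 scale, for 7 members as deposited, where 36.6% of the genes in that fit also had a larger change in *Acta2-tdT* (11.4% without the filter) and low members had passed the filter through the bleomycin-treated *Acta2-tdT* mice: Itga5 (4.69), Itgb1 (4.02), Itgb5 (3.45), Itga11 (2.19), Itgav (2.08), Itga9 (1.52) and Itga8 (1.08). After scaling it differed for Itga5 (2.60), with the exceptions given under the dependence on processing.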

How the results depend on the processing

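As deposited, the counts of members called stayed within 1.5 times the main count in every alternative run, except for the saline-treated lines. There, Itgb1 became the 1 member called with sample quality weights, under both scalings, and the count ran from 0 to 1 over the fits that left out a mouse, the 1 being without *Pdgfra-tdT* saline mouse 3. Between the bleomycin-treated lines after scaling, 4 members became 2 without the filter, 7 with the receptor-gene level subtracted, and 2 to 4 without single mice. In the interaction after scaling, 1 member became 0 with a pseudocount of 0.1, 0 without the filter, 4 with sample quality weights, 2 with the receptor-gene level subtracted, 4 without both libraries high in endothelial markers and 0 to 2 without single mice. The cause was not tested for these shifts.

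Some differences turned direction. With the receptor-gene level subtracted, Itga8 (0.0041) and Itga9 (0.094) in scaled *Acta2-tdT* values and Itga8 (0.11) in the scaled interaction turned positive. With the same subtraction 12 shares turned. Between the saline-treated lines these were Itga1 (7.60 points) and Itga7 (-0.13), and between the bleomycin-treated lines Itga7 (0.23), Itga8 (2.40), Itga11 (4.37) and Itgav (5.06). For bleomycin in *Acta2-tdT* they were Itga7 (0.44), Itgb1 (-1.14), Itgb3 (0.49) and Itgb5 (0.65), and in *Pdgfra-tdT* Itga7 (0.078) and Itga11 (0.31). Of the 12, Itga8, Itga11 and Itgb3 passed the exact permutation test after turning. The group they were compared with lay below the subtracted level in every mouse, except Itga11 in *Pdgfra-tdT* bleomycin mouse 5. These passes therefore follow from the subtraction. Without single mice, Itgb1 in *Pdgfra-tdT* ran from -0.46 to 1.17 as deposited and -0.55 to 0.66 scaled, and the scaled interaction from -1.05 to 0.074 for Itga1 and -0.15 to 0.40 for Itga9. The cause was not tested.

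Of the differences of single members under the other alternatives, 210 kept direction and call, 12 gained a call, 11 lost one and 3 turned. In the fits that left out mice, 504 kept both, 8 gained a call, 34 lost one and 14 turned. Same-numbered mice of the 2 lines did not deviate together (r from -0.09 to 0.16 with saline and -0.31 to 0.07 with bleomycin), so the numbers were not taken as pairs. The replicate block gave 36 and 86 called genes with saline (as deposited and scaled; 237 and 265 without it), with 0 members, and 9379 and 3308 with bleomycin, with 7 and 3 members. Counts of called genes moved by over 1.5 times elsewhere too, given as deposited and scaled where both moved. Against 237 and 265 for the saline-treated lines there were 2715 and 3648 with sample quality weights, 59 and 135 without the filter and 126 (as deposited) with all 16 mice in 1 fit. Against 9 and 11 for bleomycin in *Pdgfra-tdT* there were 548 and 2931 with weights, 2 as deposited without the filter and 15 and 58 with all 16 mice. Scaled bleomycin-treated lines went from 3967 to 2044 without the filter, and scaled *Acta2-tdT* from 7020 to 17688 without it. The interaction went from 6605 to 3463 and from 449 to 1477 with a pseudocount of 0.1, and as deposited to 10668 with weights; scaled it went to 3204 with weights, 856 with subtraction, 132 without the filter and 3120 without both libraries. Without single mice the counts ran from 88 to 2397 and 140 to 3094 for the saline-treated lines (highest without *Pdgfra-tdT* saline mouse 3), 2549 to 5886 for the scaled bleomycin-treated lines, 6 to 73 and 8 to 43 for bleomycin in *Pdgfra-tdT* and 158 to 2605 for the scaled interaction (highest without *Pdgfra-tdT* bleomycin mouse 5).

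Low values limit the saline-treated groups and the *Pdgfra-tdT* line most, where nearly all members lay under the 95th percentile of receptor genes; a missing call there does not show equal levels.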
